A study of Sus scrofa with 25 samples.

Results

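The 7 subunits of respiratory complex I that are encoded in mitochondrial DNA (mtDNA) were followed in muscle RNA of 25 pigs. They are ND1 (ENSSSCG00000018065), ND2 (ENSSSCG00000018069), ND3 (ENSSSCG00000018084), ND4L (ENSSSCG00000018086), ND4 (ENSSSCG00000018087), ND5 (ENSSSCG00000018091) and ND6 (ENSSSCG00000018092). Each symbol matched 1 Ensembl identifier in the gene name table, so the set held 7 genes of the 25879 identifiers analysed. All 7 had enough counts to be tested, and the lowest count of any member in any library was 160.

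Complex I, the NADH:ubiquinone oxidoreductase of the inner mitochondrial membrane, passes electrons from NADH to ubiquinone and pumps protons. Its membrane arm is built around these mtDNA-encoded subunits, and the other subunits are encoded in the nucleus and imported. Mammalian mtDNA is transcribed into long precursor RNAs that are cut into separate messages. ND6 is the only protein-coding message of the light strand, ND4L and ND4 are carried on a shared message, and in human cells the ND6 message lacks a stable poly(A) tail while the other messages have a short one. Skeletal muscle, above all its slow oxidative fibres, is rich in these transcripts.

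The pigs came from Polish Large White sows mated with Landrace boars, and each had a straw-bedded pen of its own. From day 85 of life they had feed with vitamin D3 at 0 IU/kg (control, 8 pigs), 5000 IU/kg (D5000, 8 pigs) or 10000 IU/kg (D10000, 9 pigs) for 90 days, with equal protein and energy in the feeds. Littermates were spread over the 3 feeds at random, and each library came from muscle of 1 pig. Which muscle was taken, the sex and the litter are not known here, and a replicate is named by its animal number.

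Libraries were made with a kit that primes on poly(A) and reads the 3' end of the message, so counts do not scale with transcript length. Levels are given as CPM, a gene's count scaled by the total gene count of its library. They reflect the reads assigned to a gene, not its molecules. Gene counts ran from 3310507 to 15177976 per library and the share of reads assigned to genes from 24.9% to 70.6%. Skeletal muscle markers had counts in each diet (7 of 7 matched genes), with a summed level of 63244 to 254540 CPM in the control, 76258 to 245135 CPM in D5000 and 12591 to 231240 CPM in D10000. The low end was D10000 replicate 27, where fat cell markers summed to 16818 CPM against 81.5 to 390 CPM in the other libraries (8 of 9 matched genes with counts, ADIG at 0). Liver transcripts were also present, with a summed level of 3751 to 25373 CPM in the control, 4007 to 34768 CPM in D5000 and 3465 to 39427 CPM in D10000 over 11 matched genes (SERPINA1 at 0 in D5000). Heart muscle markers summed to at most 7.62 CPM over 5 matched genes, with MYBPC3 at 0 throughout and NPPB at 0 in the control and D5000.

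The 7 members took 3.76% ± 1.19 (SD, n = 25) of all gene counts, from 2.24% in D10000 replicate 26 to 6.97% in control replicate 28. Within the 13 messages of mtDNA they held 31.7% ± 5.35 (SD, n = 25) of the counts, with 32.1% ± 6.04 in the control, 31.5% ± 4.95 in D5000 and 31.7% ± 5.70 in D10000. The other 6 messages, for cytochrome oxidase (COX1, COX2, COX3), cytochrome b (CYTB) and ATP synthase (ATP6, ATP8), held the rest.

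ND4 had the most reads of the 7, with a mean of 13795 CPM over the 25 libraries and rank 11 among all genes. It was followed by ND2 (8139 CPM, rank 17), ND3 (6388 CPM, rank 21), ND1 (5975 CPM, rank 25) and ND5 (2972 CPM, rank 40). ND4L (236 CPM, rank 396) and ND6 (61.9 CPM, rank 1611) lay far below. ND4 was above ND2 in 25 of 25 libraries, ND5 above ND4L in 25 and ND4L above ND6 in 25. ND2 exceeded ND3 in 21 of 25 libraries and ND1 exceeded ND5 in 23. ND3 exceeded ND1 in only 11 of 25, so these neighbours did not hold a fixed order. In the RefSeq table of the Sscrofa11.1 assembly, used here for gene order only, ND4L overlaps ND4 and ND5 overlaps ND6. Whether the counting used strand was not given in the sources used here, so reads of ND6 and antisense reads across it cannot be told apart. The counts of these overlapping pairs are therefore uncertain where the genes share bases.

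**Figure D1:**
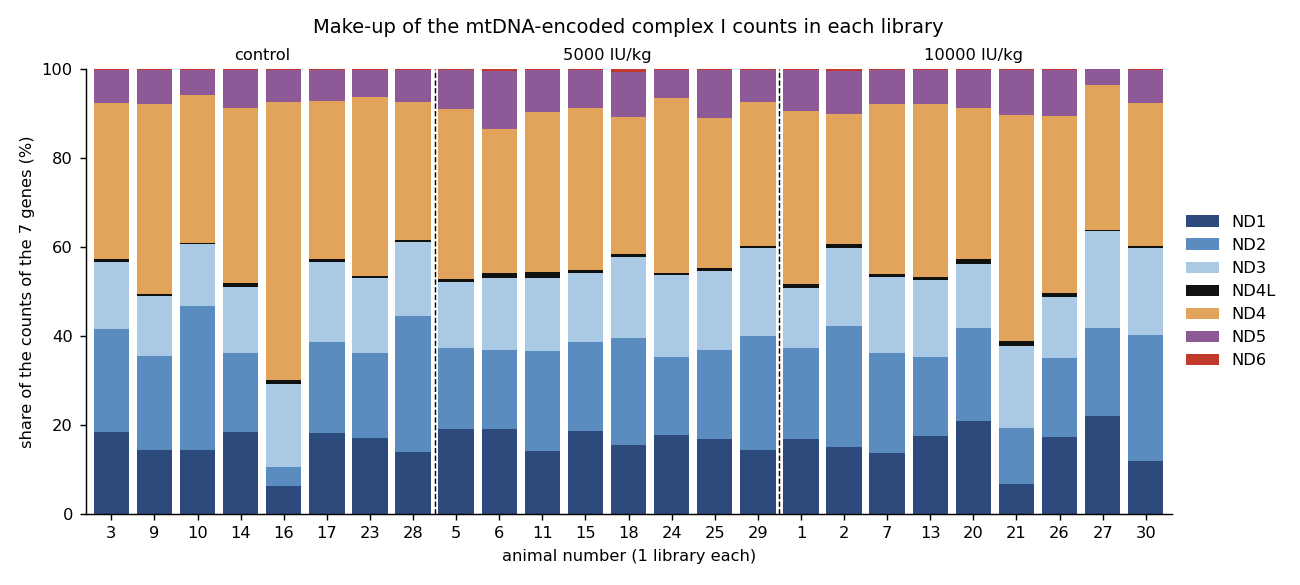
Share of the summed counts of the 7 genes (vertical axis, %) held by each gene in each library (horizontal axis, animal number, grouped by diet). ND4 is the largest block in all 25 libraries, ND2 comes close to it in control replicates 10 and 28, and control replicate 16 and D10000 replicate 21 stand out by a thin ND1 and ND2 and a thick ND4.

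ND2, ND4 and ND5 are the antiporter-like subunits through which protons are thought to move. ND4 had its lowest, median and highest level at 10239, 16474 and 21745 CPM in the control, at 8534, 12348 and 20334 CPM in D5000 and at 8922, 12658 and 16568 CPM in D10000. The middle of both vitamin D3 diets lay under that of the control, while their ranges overlapped the control range. For ND2 the same values were 1284, 7644 and 21356 CPM in the control, 4083, 8146 and 11677 CPM in D5000 and 3837, 6170 and 13519 CPM in D10000. The control spanned the widest range of the 3 diets here, and both the lowest (replicate 16) and the highest (replicate 28) of all 25 libraries were controls. ND5 stood at 2146, 2734 and 4986 CPM in the control, 1954, 3316 and 5574 CPM in D5000 and 1797, 2534 and 3587 CPM in D10000. The highest ND5 level of D10000 lay below the highest of the other diets, and the 3 ranges overlapped.

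ND1 sits where the membrane arm meets the matrix arm and helps to form the ubiquinone site. It stood at 1923, 6218 and 9668 CPM (lowest, median, highest) in the control, 3612, 5764 and 9187 CPM in D5000 and 2033, 4691 and 11195 CPM in D10000. D10000 replicate 27 had the highest ND1 level of all 25 libraries, and 8 of 9 D10000 libraries were under the control mean of 6371 CPM, as were 4 of 8 controls.

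ND3, ND4L and ND6 are the small subunits of the membrane arm next to ND1. ND3 stood at 4420, 6196 and 11544 CPM in the control, 3363, 6246 and 9505 CPM in D5000 and 3098, 5616 and 11046 CPM in D10000. ND4L stood at 145, 237 and 307 CPM in the control, 153, 253 and 413 CPM in D5000 and 104, 212 and 335 CPM in D10000. ND6 stood at 21.9, 47.9 and 132 CPM in the control, 34.7, 57.7 and 220 CPM in D5000 and 17.2, 49.0 and 130 CPM in D10000. The medians of these 3 genes lay close together across diets, and a single library carried the top of the ND6 range in each diet (control replicate 28, D5000 replicate 18 and D10000 replicate 2).

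**Figure D2:**
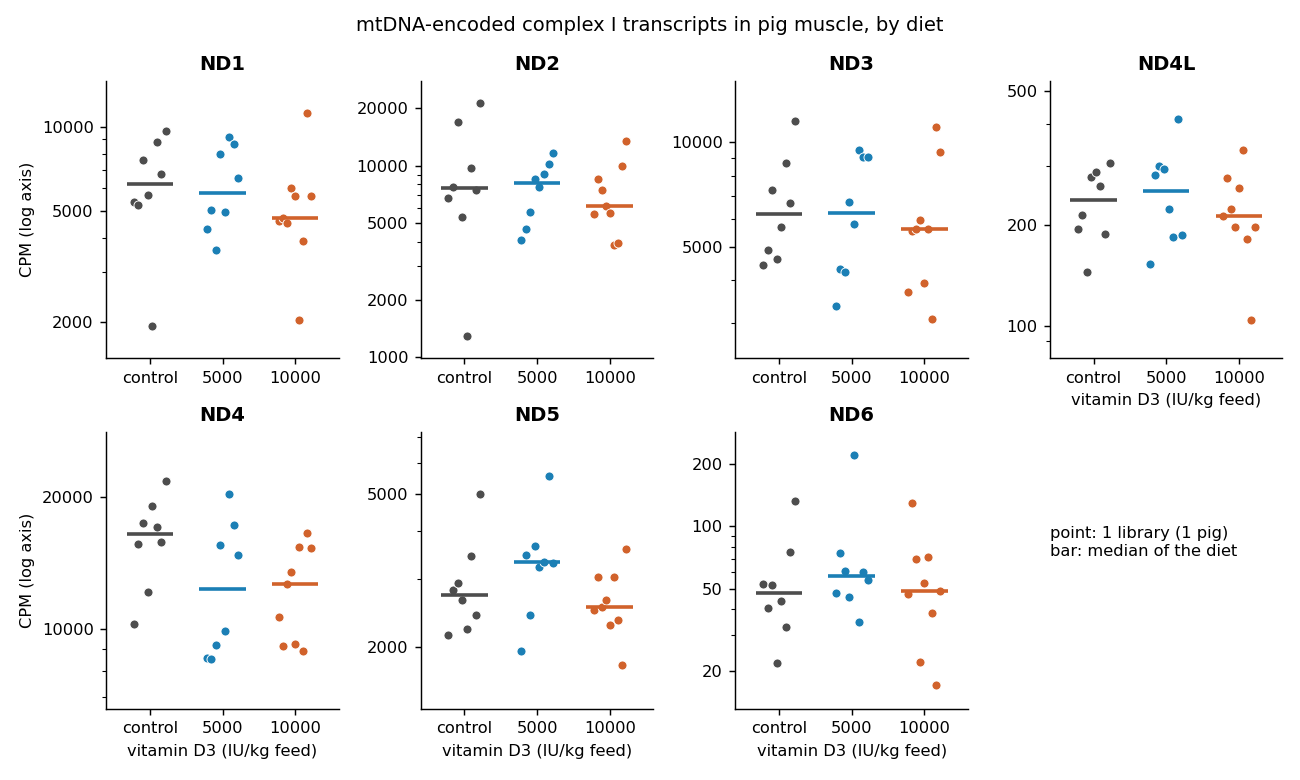
Level of each of the 7 genes (CPM, log axis) in each library, by diet (horizontal axis, vitamin D3 in IU/kg feed; points are libraries, bars are medians). The 3 diets overlap for each gene, and ND4 shows the clearest step in its median, from 16474 CPM in the control to 12348 and 12658 CPM.

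Whether the higher dose goes with other levels of these messages was read from D10000 against the control. All 7 members had a log2 fold change below 0, where 42.8% of the 10992 tested genes did. Their median was -0.38 against 0.07 over all tested genes. The members share libraries and precursor RNAs, so their common sign is not 7 separate observations. None passed the threshold of an adjusted p of 0.05 in edgeR (0 of 7 members, and 0% of all tested genes), and none had an unadjusted p under 0.05 (2.39% of all tested genes). DESeq2 and voom also gave 0 of 7 on both counts.

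ND4 had the smallest p of the 7 here, with a log2 fold change of -0.59 ± 0.34 (SE; 9 against 8 libraries), a 95% interval of -1.28 to 0.10 and an adjusted p of 1.00 in edgeR. Its level was 12375 ± 2998 CPM (SD, n = 9) in D10000 against 16160 ± 3665 CPM (SD, n = 8) in the control, and 8 of 9 D10000 libraries were lower than the control mean, against 4 of 8 controls. ND2 stood at -0.64 ± 0.42, ND1 at -0.46 ± 0.37, ND3 at -0.38 ± 0.36, ND5 at -0.34 ± 0.33, ND4L at -0.28 ± 0.31 and ND6 at -0.21 ± 0.34. For ND2 and ND3, 7 of 9 D10000 libraries and 5 of 8 controls were under the control mean. For ND5 and ND6 these were 6 of 9 and 6 of 8, so that the share was no higher than in the control itself, and for ND4L 6 of 9 and 4 of 8. The intervals reached down to -1.50 for ND2 and up to 0.47 for ND6, so a fall to a level well under the control and a small rise both lay within them.

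Skeletal muscle markers were lower by sign in the same comparison (7 of 7 tested, median -0.72). So were fast-twitch fibre genes (9 of 9, median -0.73) and slow-twitch fibre genes (6 of 7, median -0.53). The skeletal muscle and fast-twitch lists share TNNC2, TNNI2 and TNNT3, so they are not separate counts. These medians include D10000 replicate 27, the library rich in fat cell markers. It had the lowest summed level of each list among the 25 libraries. The part of these markers in the members' values was not tested. Leaving out D10000 replicate 27 changed the values of the members. Without it the median of the 7 members was -0.47 and ND1 stood at -0.59 ± 0.37, while ND4L stood at -0.16 ± 0.29, ND5 at -0.25 ± 0.32 and ND6 at -0.07 ± 0.32. Without control replicate 28, the highest of 25 for ND2, ND3 and ND4, the member median was -0.25, ND3 stood at -0.25, ND5 at -0.22 and ND6 at 0.09. ND2 stood at -0.33 without control replicate 10 and at -0.92 without D10000 replicate 30. The latter was the only setting in which any member had an unadjusted p under 0.05, and the member median there was -0.53. Another setting left out D10000 replicate 27 and the 4 libraries of the lowest share of assigned reads (D5000 replicates 11 and 18, D10000 replicates 2 and 7). This choice was made after seeing the data. It gave a median of -0.36 with ND4 at -0.45 ± 0.33, ND4L at -0.07 ± 0.30 and ND5 at -0.14 ± 0.32. With total gene counts in place of TMM scaling the member median was -0.17 and that of all tested genes 0.24, and the 7 fold changes ran from -0.42 (ND2) to -0.03 (ND6).

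The lower dose was set against the same control libraries. Of the 7 members 4 had a log2 fold change below 0, where 49.0% of all tested genes did, and the member median was -0.01 against 0.01. ND2 stood at -0.38 ± 0.44 (SE, n = 8 per diet), ND4 at -0.33 ± 0.35, ND3 at -0.07 ± 0.37 and ND1 at -0.01 ± 0.38. ND4L stood at 0.13 ± 0.32, ND5 at 0.19 ± 0.34 and ND6 at 0.26 ± 0.35. With edgeR 0 of 7 members had an adjusted p under 0.05 (0% of all tested genes). An unadjusted p under 0.05 was found for 0 of 7 (3.38% of all tested genes in edgeR). DESeq2 and voom also gave 0 of 7 on both counts. ND5 was under the control mean in 2 of 8 D5000 libraries and 6 of 8 controls, and ND4 in 6 of 8 and 4 of 8. Single libraries set the sign of ND1, ND3, ND4L and ND5: leaving out 1 library turned ND1 in 9 of 25 settings and ND3 in 5, and without D5000 replicate 25 ND4L stood at -0.13 and ND5 at -0.08. ND2 shrank to -0.08 without control replicate 10. ND6 stood at 0.03 without D5000 replicate 18 and at 0.56 without control replicate 28. The member median ran from -0.19 (without D5000 replicate 25) to 0.10 (without D5000 replicate 11).

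Between the doses, all 7 members were lower at 10000 than at 5000 IU/kg by sign, where 45.4% of all tested genes were, with a median of -0.41 against 0.04. ND5 stood at -0.53 ± 0.33 (SE; 9 against 8 libraries; adjusted p = 0.999 in edgeR), ND6 at -0.47 ± 0.34, ND1 at -0.45 ± 0.37 and ND4L at -0.41 ± 0.31. ND3, ND4 and ND2 stood at -0.31 ± 0.36, -0.27 ± 0.34 and -0.26 ± 0.42. Again 0 of 7 passed in edgeR (0% of all tested genes). An unadjusted p under 0.05 was found there for 0 of 7 (2.94% of all tested genes in edgeR). DESeq2 and voom also gave 0 of 7 on both counts. Without D5000 replicate 25 the member median was -0.15, ND5 stood at -0.26, ND1 at -0.27, ND4L at -0.15, ND3 at -0.11, ND4 at -0.09 and ND2 at -0.07. ND6 stood at -0.23 without D5000 replicate 18. Without D10000 replicate 30 ND2 stood at -0.54 and ND3 at -0.51. The joint test of the 3 diets called 0 of 10992 genes (smallest adjusted p = 0.911, with 292 genes at an unadjusted p under 0.05), and the smallest p among the members was 0.231, for ND4.

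**Figure D3:**
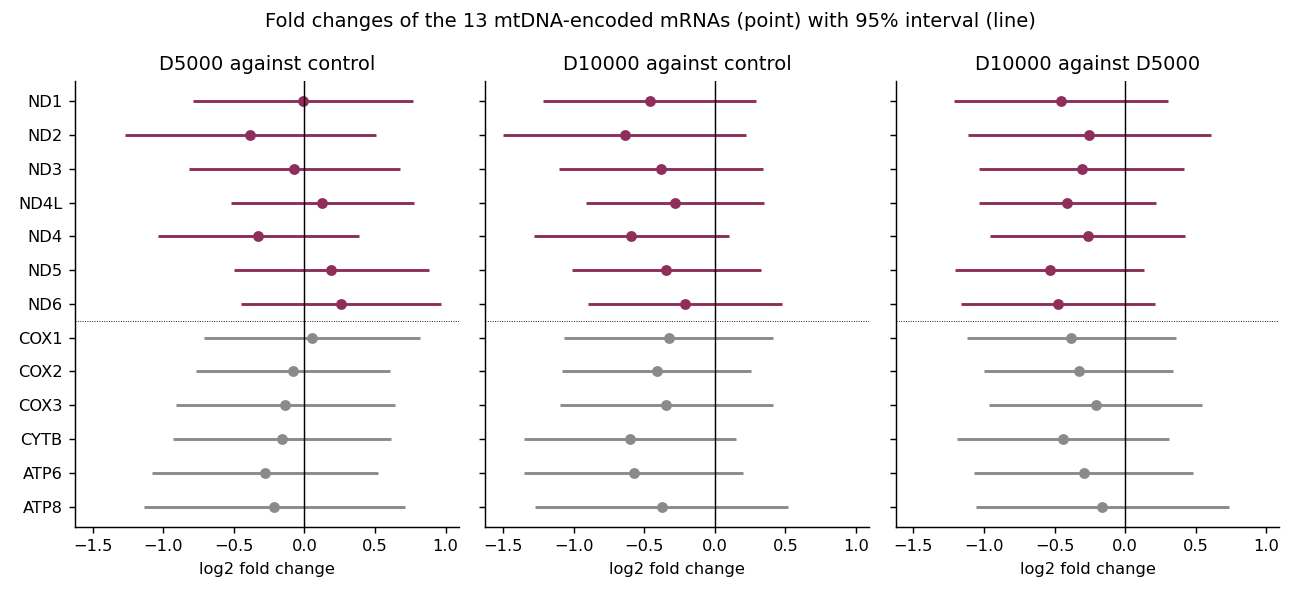
Log2 fold changes (horizontal axis) of the 13 messages of mtDNA in the 3 comparisons, with the complex I members above the dotted line; points are estimates of the edgeR fit and lines 95% intervals. All 39 intervals include 0, and all 13 points lie left of 0 in both comparisons of D10000.

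Ratios between members of the same library do not depend on library scaling, and 6 were set up. All but ND6 to ND5 pair genes of the same strand, as ND6 is the only protein-coding message of the light strand. ND4 had 3.23 ± 2.72 counts per ND1 count in the control, 2.09 ± 0.253 in D5000 and 2.78 ± 1.86 in D10000 (SD, n = 8, 8 and 9). ND2 had 1.38 ± 0.572, 1.26 ± 0.340 and 1.44 ± 0.521 counts per ND1 count, ND3 1.21 ± 0.720, 1.04 ± 0.205 and 1.24 ± 0.642, and ND5 0.527 ± 0.263, 0.555 ± 0.124 and 0.610 ± 0.364. The diet means of these ratios differed by less than the SD among the control pigs. For ND4 to ND1 the means and SDs of the control and D10000 include control replicate 16 (9.92) and D10000 replicate 21 (7.59). The medians of that ratio were 2.28 in the control, 2.00 in D5000 and 2.30 in D10000.

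ND4L shares its message with ND4. It had 15.0 ± 4.40 counts per 1000 ND4 counts in the control, 21.3 ± 8.61 in D5000 and 19.1 ± 7.39 in D10000. ND4L lies before ND4, so the 3' end of the shared message is in ND4. The ND4L counts are therefore not reads of a 3' end of its own. ND6 had means of 18.9, 23.8 and 20.4 counts per 1000 ND5 counts, with all libraries between 8.25 and 68.3. In 18 exact permutation tests of the mean log2 ratio between diets (two-sided, 12870 or 24310 splits) the smallest p was 0.127, for ND4L to ND4 at 5000 IU/kg against control (difference 0.45 on the log2 scale), and the adjusted p was 0.909 in all 18.

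Control replicate 16 and D10000 replicate 21 had a different balance from the other libraries. In control replicate 16 ND1 stood at 1923 CPM and ND2 at 1284 CPM, the lowest of 25 for both, beside ND4 at 19071 CPM, which ranked 3 of 25. ND1 and ND2 held 6.30% and 4.20% of the counts of the 7 genes there, and ND4 62.4%. In D10000 replicate 21 ND1 stood at 2033 CPM and ND2 at 3837 CPM, the second lowest of 25 for both, with ND4 at 15428 CPM and shares of 6.70%, 12.6% and 50.8%. The other 23 libraries held 11.9% to 22.1% of these counts in ND1 and 29.2% to 42.7% in ND4. The short ATP synthase gene ATP8 was also lowest in these libraries, at 41.3 and 172 CPM, against 247 to 1480 CPM in the others. ATP6, which overlaps ATP8, was not low there. ATP6 stood at 34985 CPM in control replicate 16, the highest of 25. In D10000 replicate 21 it stood at 20034 CPM, with a median of 19726 CPM over all libraries. The libraries belong to different diets, and their ND3 levels, 5706 and 5616 CPM, lay in the middle of the range.

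D10000 replicate 27 had yet another balance. Its ND1 (11195 CPM) was the highest of 25 libraries and its ND3 (11046 CPM) the second highest, while its ND5 (1797 CPM), ND4L (104 CPM) and ND6 (17.2 CPM) were the lowest. ND5 held 3.54% of the counts of the 7 genes there, against 5.59% to 13.1% elsewhere. Fat cell markers moved with this balance, and their part in it was not tested.

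The ratio of ND6 to ND5 varied with the share of reads assigned to genes. The ND6 count per 1000 ND5 counts was 68.3 in D5000 replicate 18 and 42.8 in D10000 replicate 2, the libraries with the lowest shares of assigned reads (24.9% and 28.4%), and 8.25 in control replicate 14, which had the highest share (70.6%). Over 25 libraries the log2 ratio and the share had a Pearson r of -0.80 on values centred within diets (permutation p = 2.0e-05, adjusted p = 0.00012 over 6 ratios) and a Spearman rho of -0.71 (permutation p = 0.00013, adjusted p = 0.00078). Without those 2 libraries r was -0.64, and without these 2, D5000 replicate 11 and D10000 replicates 7 and 27 it was -0.66. For the other 5 ratios r ran from -0.43 (ND2 to ND1, adjusted permutation p = 0.101) to 0.04 (ND4 to ND1, adjusted permutation p = 0.851). This set of relations was chosen after the values were seen. The share of assigned reads was 58.4% ± 8.76 in the control, 51.8% ± 12.6 in D5000 and 53.5% ± 13.1 in D10000, and its part in the ND6 levels between diets was not tested apart from a fit with the share as a covariate. In that fit ND6 stood at -0.34 at 10000 IU/kg against control.

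**Figure D4:**
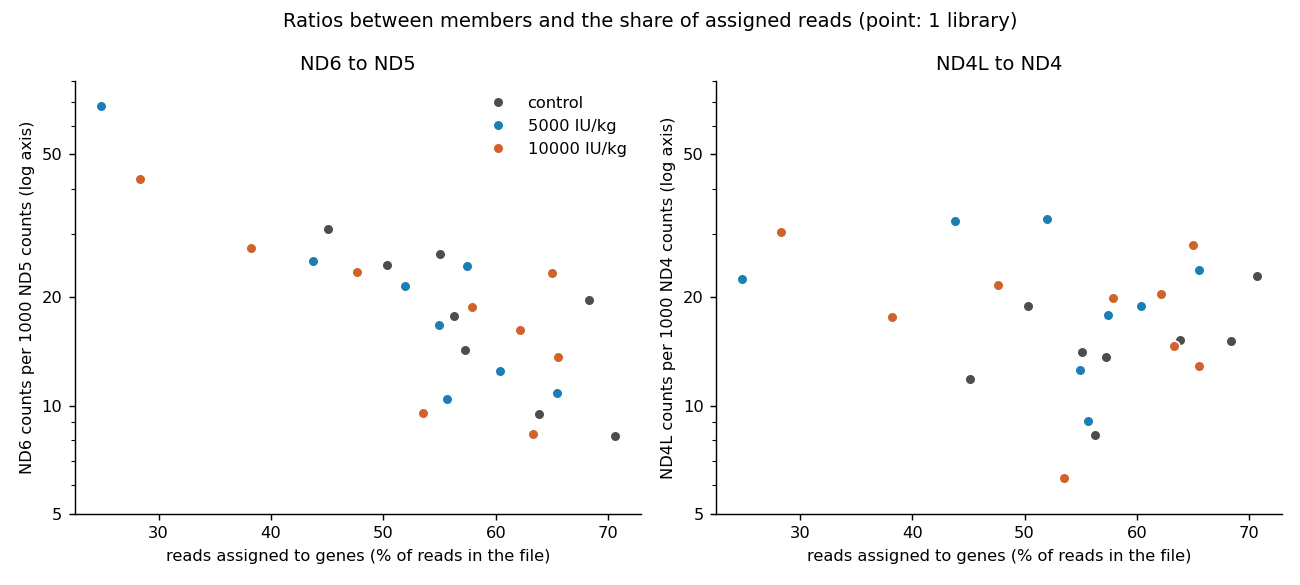
Counts of ND6 per 1000 counts of ND5 and of ND4L per 1000 counts of ND4 (log axes) against the percentage of reads assigned to genes, with 1 point per library coloured by diet. The ND6 ratio is highest, at 68.3 and 42.8, in the 2 libraries at the left edge and falls to 8.25 at the right edge, while the ND4L ratio has an r of -0.14 with the share.

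Across the 25 libraries ND1, ND2, ND3, ND4 and ND5 varied together, with r from 0.53 to 0.88 between them. Among the 21 pairs of members the Pearson r of log2 CPM had a median of 0.53, with the highest at 0.88 for ND3 with ND4, 0.84 for ND1 with ND2 and 0.81 for ND4L with ND5. ND4L had an r of 0.18 with ND2, 0.24 with ND1, 0.38 with ND3 and 0.53 with ND4. ND6 had r from -0.10 (with ND1) to 0.40 (with ND5). These values describe libraries that share depth and scaling.

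Each member was also set against 4 measures of the library, in 28 relations. Pearson r was taken on values centred within diets, and Spearman rho on values that were not centred. Both were tested by permutation within diets. With the mean of the other 6 mtDNA messages r was 0.83 for ND1, 0.80 for ND4, 0.80 for ND5, 0.75 for ND3, 0.63 for ND2 and 0.51 for ND4L (adjusted permutation p from 0.00014 to 0.04), and -0.14 for ND6 (adjusted permutation p = 0.636). Spearman rho ran from 0.58 (ND4L) to 0.89 (ND1) for these 6 genes, with adjusted permutation p from 0.00014 to 0.0131, and was -0.06 for ND6 (adjusted permutation p = 0.798). The smallest permutation p, 1e-05, is the smallest that 1e+05 permutations can give. Without D10000 replicate 2 and D5000 replicate 18, the libraries farthest from the median of these messages, r for the 6 genes ran from 0.48 to 0.83. With total gene counts in place of TMM scaling r ran from 0.48 to 0.77 for ND1, ND2, ND3, ND4 and ND5, and was -0.09 for ND4L.

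With the mean of the nuclear complex I subunits r was 0.60 for ND4 (rho 0.59), 0.59 for ND4L (rho 0.64) and 0.55 for ND5 (rho 0.63), with adjusted permutation p of 0.007, 0.00924 and 0.021 for r and of 0.00977, 0.00492 and 0.00521 for rho. For ND1 only rho passed, at 0.47 (adjusted permutation p = 0.0463, r = 0.31). These relations changed with the scaling: with total gene counts r was -0.01 for ND4, 0.02 for ND4L and -0.26 for ND5. The same held for the share of assigned reads, where r was 0.66 for ND4 (rho 0.60), 0.53 for ND5 (rho 0.52), 0.49 for ND1 (rho 0.48) and 0.49 for ND4L (rho 0.56), with adjusted permutation p from 0.00106 to 0.0437 for r and from 0.00383 to 0.0316 for rho. With total gene counts these 4 were 0.26, 0.08, 0.13 and 0.04. The TMM factors themselves ran from 0.679 to 1.54 and had an r of -0.81 with the share. For ND6 the relation to the share went the other way, at -0.40 with TMM (adjusted permutation p = 0.114) and -0.71 with total gene counts. With TMM its rho was -0.29 (adjusted permutation p = 0.269), and r was -0.10 without D10000 replicate 2 and D5000 replicate 18. With the slow-twitch minus fast-twitch level of the library r ran from -0.13 (ND6) to 0.32 (ND4), with no adjusted permutation p under 0.256.

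The nuclear subunits of the complex were read as lists. Of 6 tested core subunits, which carry the flavin, the iron-sulphur clusters and the quinone site, 6 had a log2 fold change below 0 at 10000 IU/kg against control (median -0.33), and of 22 tested accessory subunits 21 did (median -0.33), where 42.8% of all tested genes did. At an adjusted p under 0.05 in edgeR there were 0 of 28 (0% of all tested genes). At an unadjusted p under 0.05 there were also 0 of 28 (2.39% of all tested genes). The subunits share libraries, D10000 replicate 27 among them, so their common sign is not 28 separate observations. Skeletal muscle markers had a median of -0.72 in the same comparison, and their part in these values was not tested. NDUFS3 (ENSSSCG00000032081), a core subunit, stood at -0.48 ± 0.27, with 113 ± 32.4 CPM in D10000 and 138 ± 43.3 CPM in the control. The flavin-side core subunit NDUFV2 (ENSSSCG00000038826) stood at -0.35 ± 0.27. The accessory subunits with the smallest p were NDUFB10 (ENSSSCG00000030328) at -0.53 ± 0.29, NDUFB11 (ENSSSCG00000034487) at -0.56 ± 0.33 and NDUFA11 (ENSSSCG00000027307) at -0.44 ± 0.26.

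At 5000 IU/kg against control the core subunits had 2 of 6 below 0 (median 0.12) and the accessory subunits 17 of 22 (median -0.18), where 49.0% of all tested genes did. Past the adjusted threshold there were 0 of 28 (0% of all tested genes). An unadjusted p under 0.05 was found for 0 of 28 (3.38% of all tested genes).

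Assembly factors of complex I had 7 of 12 tested genes below 0 at 10000 IU/kg (median -0.05), genes of mtDNA maintenance and transcription 8 of 12 (median -0.05) and genes of mitochondrial RNA processing and stability 10 of 17 (median -0.06), where 42.8% of all tested genes did, and 0 of 41 had an unadjusted p under 0.05 (2.39% of all tested genes). TMEM126B (ENSSSCG00000014905), an assembly factor of the membrane arm, stood at -0.66 ± 0.35, TMEM186 (ENSSSCG00000033311) at -0.83 ± 0.54 and NDUFAF5 (ENSSSCG00000007076) at 0.94 ± 0.85. SSBP1 (ENSSSCG00000016488), which coats single-stranded mtDNA, stood at -0.32 ± 0.29, the mtDNA polymerase POLG (ENSSSCG00000001838) at -0.27 ± 0.34 and the helicase TWNK (ENSSSCG00000030428) at -0.20 ± 0.27. SLIRP (ENSSSCG00000028167), which with LRPPRC stabilises mitochondrial messages, stood at -0.47 ± 0.32. FASTKD3 (ENSSSCG00000017099) stood at 0.93 ± 0.66 and FASTK (ENSSSCG00000024184), which is needed for the ND6 message, at -0.72 ± 0.53. Mean levels were low for TMEM186 (6.18 CPM in the control and 4.37 CPM in D10000), NDUFAF5 (1.33 and 3.19 CPM) and FASTKD3 (2.30 and 4.84 CPM).

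At 5000 IU/kg 2 of these 41 genes had an unadjusted p under 0.05, where 3.38% of all tested genes did: FASTK at -1.30 ± 0.56 and the assembly factor NDUFAF3 at -0.95 ± 0.38, the latter named after its value was seen (adjusted p = 0.999 in edgeR for both). The medians there were 0.02 for assembly factors (6 of 12 below 0), -0.04 for mtDNA maintenance and transcription (6 of 12) and -0.18 for RNA processing and stability (11 of 17). In bulk muscle fewer cells of a type, fewer mitochondria per cell and less RNA per mitochondrion cannot be told apart.

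**Figure D5:**
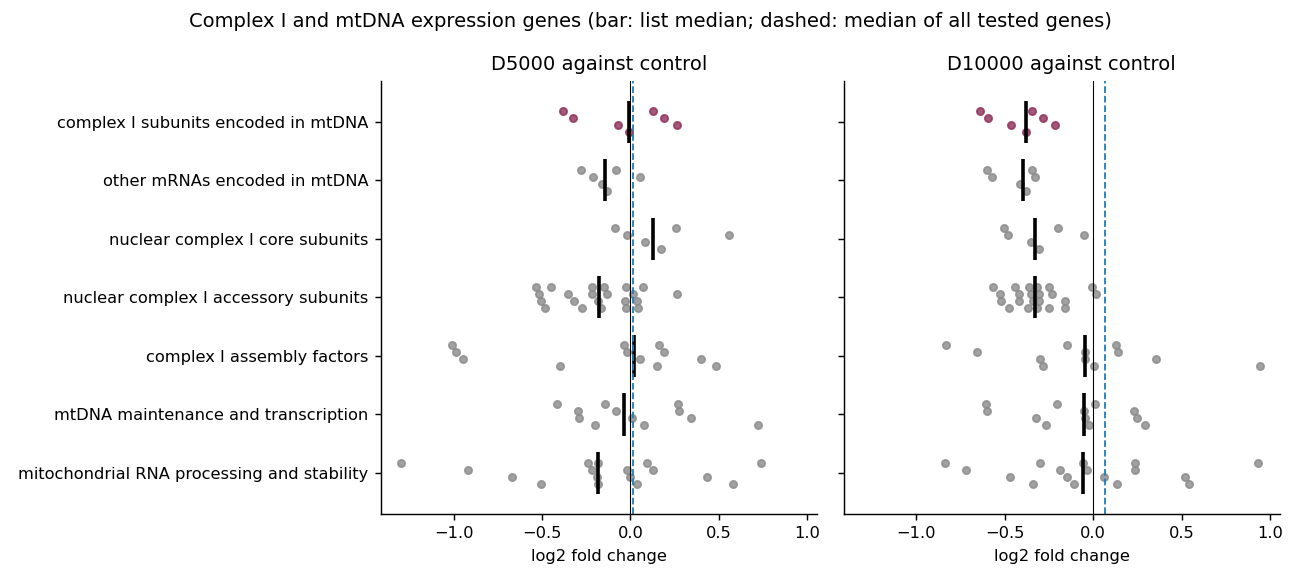
Log2 fold changes (horizontal axis) of the genes of complex I and of mtDNA expression at 5000 and 10000 IU/kg against control; points are genes, black bars list medians and the dashed line the median of all tested genes. At 10000 IU/kg the mtDNA-encoded and the nuclear subunits lie mostly left of 0. Their medians are -0.38 for the first and -0.33 for both nuclear lists. The other mtDNA messages have a median of -0.39. The lists of assembly factors, of mtDNA maintenance and transcription, and of RNA processing and stability centre close to 0.

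The genes whose log2 CPM was most like the mean of the 7 members over the 25 libraries were, among 10985 others, COX1 (r = 0.85), the mitochondrial ribosomal protein gene MRPL51 (r = 0.76), the identifiers ENSSSCG00000006070 (r = 0.75) and ENSSSCG00000006756 (r = 0.74), for which the table gave no symbol, and the complex I accessory subunit NDUFA5 (r = 0.74). ATP6, CYTB and COX2 ranked 6, 8 and 9 (r = 0.73, 0.72 and 0.72), ATP8 ranked 72 (r = 0.61) and COX3 ranked 234 (r = 0.51). These r were taken with TMM scaling on values not centred within diets, and were not repeated with total gene counts. COX1 stood at 18734 ± 7676 CPM in the control, 20013 ± 5634 CPM in D5000 and 16737 ± 4670 CPM in D10000, and MRPL51 at 52.8 ± 24.4, 48.3 ± 24.2 and 42.6 ± 23.4 CPM.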

How the data were processed

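The deposited files held raw counts per Ensembl pig gene, 1 file per pig, and their whole numbers show no scaling by the authors. The submitters' processing notes named FastQC. Aligner, counting program, genome build and annotation: not given in the sources used here, so no coordinates are printed. The 5 summary lines at the end of each file stayed out of library sizes and tests. RNA came from the A&A Biotechnology Total RNA Mini kit and libraries from the Lexogen QuantSeq FWD kit, per the labels' protocols. Of 25880 identifiers, 1 was absent from D10000 replicate 27 which left 25879. The Ensembl pig gene table supplied the symbols. Genes were filtered with filterByExpr (minimum count 10, minimum total 15), scaled by TMM and fitted with the quasi-likelihood test of edgeR 4.0.16 (robust, diet as the only term, all 25 libraries, R 4.3.3), with Benjamini-Hochberg adjustment over 10992 genes. Intervals use the moderated degrees of freedom of the fit. DESeq2 1.42.0 and voom of limma 3.58.1 were alternatives. Log2 CPM used a prior count of 2, and 0.5 counts were added in ratios. Relations used 1e+05 permutations within diets. The scripts were tested on simulated data. P-values cover the spread between pigs of a diet. Named genes were the 7 members, the other 6 mtDNA messages, the 3 genes of each of 5 nuclear lists with the smallest p at 10000 IU/kg against control, and the 5 genes most like the mean of the members. Of these, 1 nuclear gene is not reported here. Members and lists were chosen with earlier results of these data known.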

Additional observations from a re-analysis of the deposited data

Results flagged for a closer look

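In each diet, the highest or lowest library of a gene or ratio was checked for a gap to the others that is large against the whole range (Dixon's criterion at 95%). Of 39 groups checked, 10 held such a library, and chance gives about 1 in 20. For levels, these were ND1 in D10000 replicate 27 (11195 CPM, next 6007), ND5 in control replicate 28 (4986 CPM, next 3447) and in D5000 replicate 25 (5574 CPM, next 3650), and ND6 in D5000 replicate 18 (220 CPM, next 74.6) and in D10000 replicate 2 (130 CPM, next 71.6).

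For log2 ratios, control replicate 16 stood apart for ND3 to ND1 (1.57, next 0.26), ND4 to ND1 (3.31, next 1.58) and ND5 to ND1 (0.21, next -0.89). D10000 replicate 21 stood apart for ND4 to ND1 (2.92, next 1.49) and D5000 replicate 18 for ND6 to ND5 (-3.87, next -5.30). The ratios in which control replicate 16 recurs share ND1. D5000 replicate 18 was flagged both for its ND6 level and for ND6 to ND5. The groups share libraries and genes, so the flags are not separate observations.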

How the results depend on the processing

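No paired analysis was possible because no animal number occurs in more than 1 diet and the labels name no litter. Under 35 alternatives per comparison no member reached an adjusted p under 0.05 (smallest 0.771 over edgeR, DESeq2 and voom), no setting called any gene, and the joint test called 0 genes in its alternatives. At 10000 IU/kg all members kept a fold change below 0 except ND6, which ran from -0.36 to 0.087 with 1 library left out. At 5000 IU/kg, 2 of 7 members lay below 0 after adjustment for the assigned share, 2 without the 5 doubtful libraries, and 2 to 6 with 1 library left out. ND1 turned to 0.10 with the share, 0.068 with liver transcripts as a covariate and 0.23 without the 5 libraries, and ND3 to 0.043 with the share and 0.14 without the 5 libraries. The covariate of liver transcripts and the 5 libraries were chosen after seeing the data. With 1 library left out at 5000 IU/kg, ND1 ran from -0.19 to 0.12, ND3 from -0.27 to 0.064, ND4L from -0.13 to 0.24 and ND5 from -0.082 to 0.32. Total gene counts gave r of -0.0077 for ND4 and -0.26 for ND5 with the nuclear complex I subunits and -0.095 for ND4L with the other mtDNA messages. The cause was not tested.

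Of 18 log2 ratio differences, 12 turned sign with some library left out. At 5000 IU/kg against control the ranges were -0.21 to 0.044 for ND2 to ND1, -0.17 to 0.10 for ND3 to ND1 and -0.077 to 0.31 for ND6 to ND5. At 10000 IU/kg against control they were -0.052 to 0.20 for ND2 to ND1, -0.12 to 0.25 for ND3 to ND1, -0.34 to 0.13 for ND4 to ND1, -0.073 to 0.33 for ND5 to ND1 and -0.079 to 0.22 for ND6 to ND5. Between the doses they were -0.017 to 0.23 for ND3 to ND1, -0.22 to 0.18 for ND5 to ND1, -0.33 to 0.019 for ND4L to ND4 and -0.26 to 0.15 for ND6 to ND5. ND6 had the fewest counts of the 7 in all 25 libraries, from 160 to 1079.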
